A study of Trichoderma harzianum with 18 samples.

Results

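The transcriptomes of the Trichoderma harzianum wild type (CBS 226.95) and of the Δxyr1-2 mutant, both cultured on D-fructose, were compared in order to examine what the loss of the transcription factor XYR1 changes on a sugar that was used as the control carbon source. The comparison was made up of 6 of the 18 libraries of the study, 3 of the wild type and 3 of the mutant, and covered all 14650 genes of the count table. In the mutant, the coding region of xyr1 (Triha1_1126) had been replaced with a hygromycin resistance cassette, which the wild type did not carry. The mutant is 1 single-spore isolate, so the deletion, the marker and anything else particular to that isolate cannot be told apart. Mycelia of both strains were grown for 36 h in minimal medium with D-fructose and peptone, washed, and moved to minimal medium with 25 mM D-fructose for 18 h. Each replicate of a strain began from its own spore plate. The other 12 libraries, of the same strains on cellulose or without a carbon source, were used for reference levels and for the fits that take in other cultures. Within a strain, the same 3 sets of pre-cultures supplied the cultures on all carbon sources, so those cultures share spore plates and pre-cultures with the D-fructose cultures and are not independent of them.

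XYR1 is a zinc cluster transcription factor, and in Trichoderma reesei it activates the genes for cellulases and xylanases when sugars released from plant cell walls are sensed. D-Fructose is not known as an inducer of these genes, and in fungi the genes are also held down by the carbon catabolite repressor CRE1 when an easily used sugar is present. Hexokinase phosphorylates D-fructose, which then enters glycolysis, whereas D-xylose and L-arabinose enter metabolism through the pentose catabolic pathway.

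The 6 libraries had between 16566745 and 18662459 reads counted on genes. On log2(FPKM + 1) values scaled to unit variance for each gene, where FPKM are fragments scaled to gene length and to the mapped reads of the library, libraries of different strains lay on average 166 apart and libraries of the same strain 155 apart, a ratio of 1.07, and leaving out single libraries gave ratios between 0.991 and 1.15. Replicate 1 of the mutant and replicate 3 of the wild type stood apart from the rest. Mutant replicate 1 lay on average 215 from the wild-type libraries and 178 from the other mutant libraries, and wild-type replicate 3 lay 188 from the mutant libraries and 174 from the other wild-type libraries. The other 4 libraries lay between 107 and 144 from each other, whichever strain they came from. The trimmed mean (TMM) factors, which correct for how reads are spread over genes, were 1.06, 1.16 and 1.08 in the wild type and 0.773, 1.05 and 0.933 in the mutant. Because of this, FPKM values set the mutant lower across the genome: the 3 mutant libraries were all below the 3 wild-type libraries for 14.7% of the genes tested and all above for 3.99%, but these shares were 8.05% and 7.8% on TMM-scaled values. Fold changes below are TMM-scaled, unlike the FPKM beside them, and the median log2 fold change over all genes tested was -0.03 with TMM and -0.29 with scaling by library size alone.

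**Figure D1:**
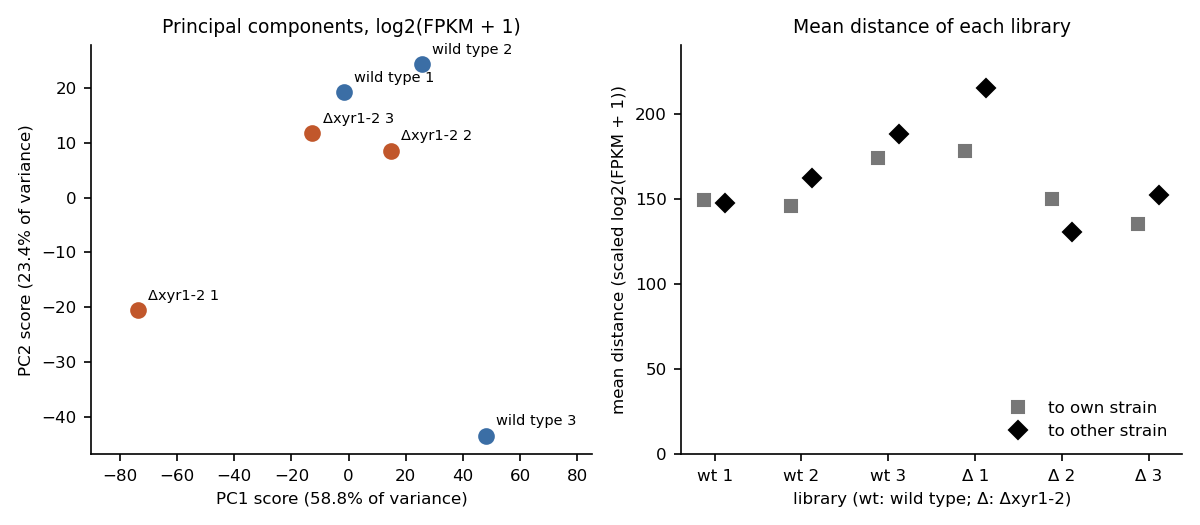
Left, scores of the 6 D-fructose libraries on the first 2 principal components of unscaled log2(FPKM + 1), with the share of variance on each axis and the replicate number beside each point. Right, mean distance of each library to the libraries of its own strain (squares) and of the other strain (diamonds), on log2(FPKM + 1) scaled to unit variance. Mutant replicate 1 and wild-type replicate 3 are at opposite ends of the first component, which holds 58.8% of the variance, and the other 4 libraries of both strains lie between them.

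The deleted gene was the clearest difference between the strains. Transcripts of xyr1 were at 25.7, 35.5 and 40.0 FPKM in the wild type and 0, 0.133 and 0.138 FPKM in the mutant, from 1272, 1802 and 1956 reads and 0, 7 and 7 reads. All wild-type libraries were far above all mutant libraries, with a log2 fold change of -8.25 ± 0.62 (SE, n = 3) and an adjusted p of 0.0142 (edgeR quasi-likelihood test, Benjamini-Hochberg over 10908 genes). In the wild type on D-fructose, xyr1 was therefore expressed at 33.7 ± 7.31 FPKM (SD, n = 3), compared with 163 ± 101 FPKM on cellulose and 61.9 ± 2.62 FPKM without a carbon source. The adjusted p passed 0.05 in only 1 of the 6 fits that left out 1 library: it was 0.00219 without mutant replicate 1 and between 0.0527 and 0.128 without any other library.

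The neighbors of xyr1 were not called. Triha1_73544 was at 16.9, 14.3 and 17.9 FPKM in the wild type and 56.1, 11.7 and 14.4 FPKM in the mutant, with only mutant replicate 1 high, and Triha1_205751 was at 3.01, 3.28 and 5.01 and 2.51, 2.39 and 1.84 FPKM. On the other side, Triha1_1128 was at 73.5, 36.3 and 112 and 35.6, 58.5 and 63.1 FPKM, and Triha1_105416 had too few reads for the test, with no library above 0.144 FPKM. The edgeR adjusted p of the 3 neighbors tested was between 0.628 and 0.801.

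Across all genes, edgeR called only xyr1, 1 of 10908 genes tested (0.00917%), with the criteria of a fold change over 2, a mean FPKM over 1 in a strain and an adjusted p under 0.05. No gene was called higher in the mutant. The next lowest adjusted p was 0.374, although 549 genes (5.03%) were higher and 329 (3.02%) lower in the mutant at an unadjusted p under 0.05. DESeq2, with the same criteria, called 111 of 10020 genes (1.11%), of which 91 (0.908%) were higher and 20 (0.2%) lower in the mutant. Limma voom with a weight for each library called 232 genes (2.13%), 181 higher (1.66%) and 51 lower (0.468%), 96 of which were among the DESeq2 calls. The DESeq2 count fell to 51 (32 higher, 19 lower) without mutant replicate 1, to 37 without wild-type replicate 2 and to 25 without mutant replicate 3, and was 296 without mutant replicate 2 and 182 (139 higher, 43 lower) without both mutant replicate 1 and wild-type replicate 3. Of the 111 genes, 18 were called by DESeq2 whichever library was left out, 8 lower and 10 higher. With all 6 libraries, a call on D-fructose for any gene other than xyr1 is therefore one by DESeq2 or voom and not by edgeR, and many of the genes described below were called by no test. In whole mycelium a lower level per cell and fewer expressing cells cannot be told apart.

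**Figure D2:**
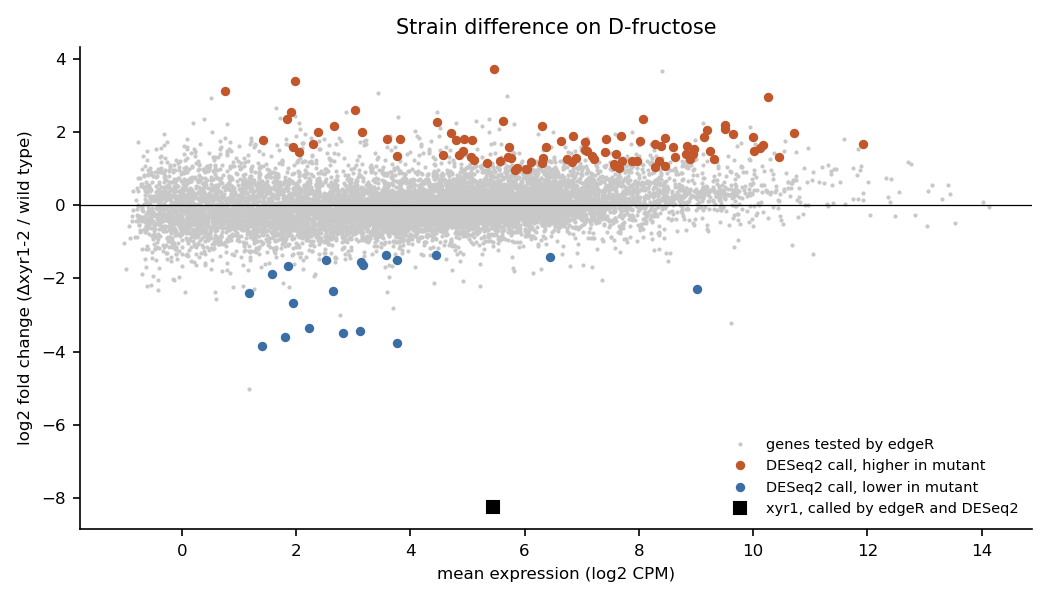
Log2 fold change of the Δxyr1-2 mutant over the wild type on D-fructose (edgeR) against mean expression in log2 CPM, read counts scaled to the library, for the 10908 genes tested. The black square at a log2 fold change of -8.25 is xyr1, and the 91 orange and 20 blue symbols, xyr1 included, are genes that DESeq2 called higher and lower in the mutant.

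The genes that DESeq2 called lower in the mutant were few and low in level. Most had no annotation in the tables used here, which covered 818 of the 14650 genes, so this is no trait of the group. The 19 genes beside xyr1 had a median level of 8.17 FPKM in the wild type and 0.964 FPKM in the mutant. All 20 had wild-type and mutant libraries that did not overlap in FPKM, where 14.7% of all genes tested did so with the mutant lower. The 20 were picked by a call on these same libraries, so this adds no support. Wild-type replicate 3 was the highest of the 6 libraries in 17 of them. DESeq2 called 13 of the 20 again without that library, and between 8 (without mutant replicate 3) and 18 (without mutant replicate 2) when another was left out.

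The gene with the lowest DESeq2 adjusted p after xyr1 was Triha1_493566, at 5.31, 5.33 and 3.19 FPKM in the wild type and 0.45, 0.254 and 0.225 FPKM in the mutant. All wild-type libraries were above all mutant libraries, with a log2 fold change of -3.57 ± 0.52 (SE, n = 3) by DESeq2 (adjusted p = 3.4e-08) and an edgeR adjusted p of 0.374. Without mutant replicate 1 and wild-type replicate 3, edgeR called this gene as well (log2 fold change -4.29 ± 0.35 (SE, n = 2), adjusted p = 0.0179, edgeR with Benjamini-Hochberg adjustment). It was also lower in the mutant on cellulose, from 7.51 ± 1.70 to 0.62 ± 0.225 FPKM (SD, n = 3; edgeR adjusted p = 0.000385), and without a carbon source, from 3.39 ± 0.735 to 0.264 ± 0.134 FPKM (edgeR adjusted p = 0.0103).

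A predicted sugar transporter and a xylan side-chain enzyme were in the same group. Triha1_99293, which carries the sugar transporter domain PF00083, was at 4.58, 7.17 and 18.6 FPKM in the wild type and 0.213, 1.01 and 1.17 FPKM in the mutant. Every wild-type library was above every mutant library, and wild-type replicate 3 was the highest (DESeq2 log2 fold change -3.44 ± 0.65 (SE, n = 3), adjusted p = 0.000125). The same transporter was at 794 ± 181 FPKM in the wild type on cellulose and 2.13 ± 0.458 FPKM in the mutant there, and at 58.6 ± 8.92 and 1.58 ± 0.32 FPKM without a carbon source (SD, n = 3). Triha1_509810 encodes a GH67 family α-1,2-glucuronidase, an enzyme that removes glucuronic acid side chains from xylan. It was at 4.30, 7.69 and 18.5 FPKM in the wild type and 0.0672, 1.47 and 0.451 FPKM in the mutant, with no overlap (DESeq2 log2 fold change -3.79 ± 0.79 (SE, n = 3), adjusted p = 0.000751). On cellulose it was at 77.2 ± 63.9 FPKM in the wild type and 1.02 ± 0.404 FPKM in the mutant (SD, n = 3). Without a carbon source its mean was 3.37 FPKM in the wild type and 0.778 FPKM in the mutant, where edgeR also called it lower (adjusted p = 0.0103).

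The other genes that remained called in every DESeq2 fit with 1 library left out had no annotation in the tables used. Triha1_484109 was at 1.78, 2.14 and 6.36 FPKM in the wild type and 0.322, 0.143 and 0.111 FPKM in the mutant, and on cellulose it was at 295 ± 146 and 0.146 ± 0.0681 FPKM (SD, n = 3), respectively. Triha1_129876 was at 5.23, 4.17 and 7.60 and 0.461, 1.36 and 1.07 FPKM. Triha1_99736 was at 2.05, 2.02 and 6.41 and 0.374, 0.124 and 0.321 FPKM, and Triha1_90109 at 2.59, 4.42 and 8.11 and 0.645, 0.84 and 0.473 FPKM. In each of these 4 genes the lowest wild-type library was above the highest mutant library. Of those 4, Triha1_99736 and Triha1_90109 were also called lower by edgeR in the mutant without a carbon source (adjusted p = 0.0173 and 0.000778).

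Smaller differences were seen in genes with steadier replicates, but their calls were kept less often than those above. Of the 6 DESeq2 fits with 1 library left out, 4 called Triha1_86893, 5 Triha1_511853 and 4 Triha1_497735. Triha1_86893 was at 12.5, 16.2 and 9.55 FPKM in the wild type and 2.96, 3.97 and 3.29 FPKM in the mutant, and DESeq2 gave it a log2 fold change of -1.60 ± 0.31 (SE, n = 3) (adjusted p = 0.000256). Triha1_511853 was at 18.1, 18 and 22.7 and 4.89, 8.74 and 5.81 FPKM, with a log2 fold change of -1.33 ± 0.28 (SE, n = 3) (DESeq2 adjusted p = 0.00109). Triha1_497735, at 5.85, 7.64 and 6.92 and 1.33, 2.11 and 1.98 FPKM, was lower in the mutant on D-fructose (DESeq2 adjusted p = 0.000986) but higher in the mutant on cellulose, at 4.42 ± 1.51 FPKM in the wild type and 19 ± 4.75 FPKM in the mutant (edgeR adjusted p = 0.00867). Triha1_66894, at 1.46, 1.57 and 1.63 and 0.244, 0.362 and 0.149 FPKM, was given no adjusted p by DESeq2.

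**Figure D3:**
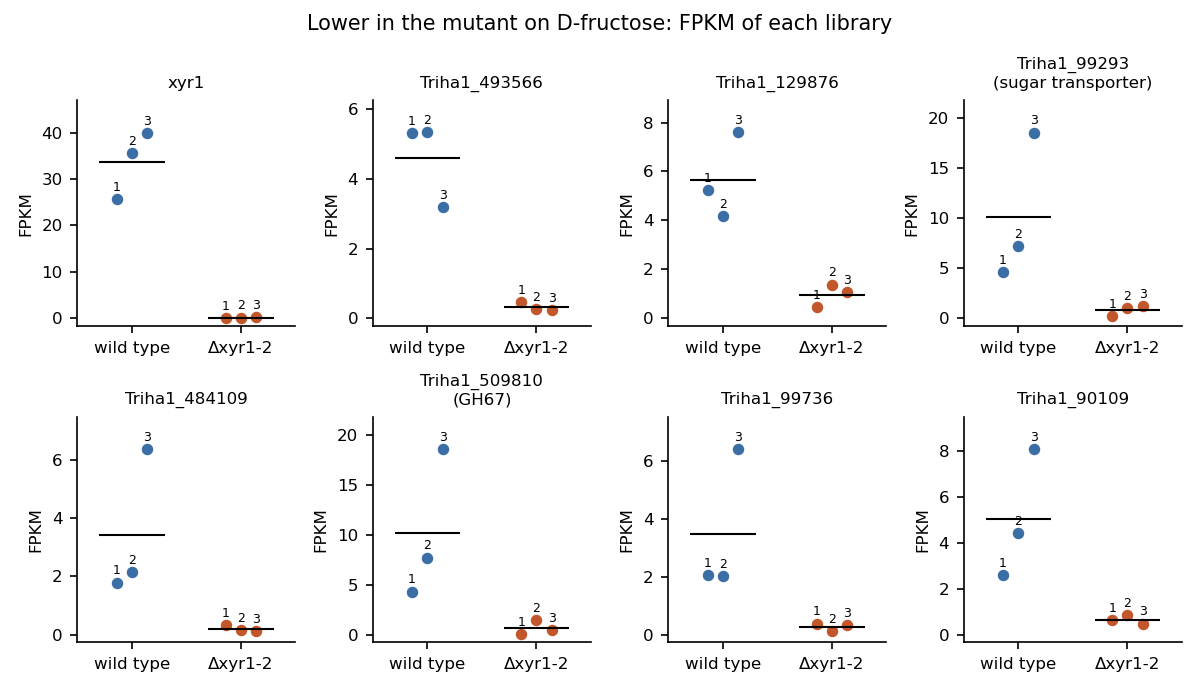
FPKM of each D-fructose library for xyr1 and the 7 other genes that DESeq2 called lower in the mutant in every fit with 1 library left out. Each panel has its own linear axis, numbers mark the replicate and bars the mean of 3 libraries. In every panel the 3 mutant libraries lie below the 3 wild-type libraries, and wild-type replicate 3 is the highest in all panels except that of Triha1_493566.

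Most genes of the lower group had a lower call on cellulose as well, with exceptions such as Triha1_497735, which was called higher there. These comparisons share no library with that on D-fructose, but they share its pre-cultures. Leaving out xyr1, 15 of the 19 genes tested on cellulose were called lower there by edgeR and 1 higher, where 42.2% of all genes tested on cellulose were called, 20.7% lower and 21.5% higher. Without a carbon source, 7 of 17 genes tested were called lower and none higher (0 at an adjusted p under 0.05 and a fold over 2 in edgeR), where 15 of 11387 genes (0.132%) were called lower. The median log2 fold change of these genes was -3.27 on cellulose, against -0.65 without a carbon source.

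Most of the genes that DESeq2 called higher in the mutant on D-fructose had a negative log2 fold change on cellulose. Of the 88 tested there, 80 were negative, 59 were called lower and 4 higher in the mutant by edgeR, and their median log2 fold change was -1.85. Of all genes tested in both cultures, 52.0% were negative on cellulose, 21.5% were called lower there and 19.9% higher. Without a carbon source none of the 85 tested was called by edgeR in either direction, and the median log2 fold change was 0.05. Hardly any gene was called there, 0.114% lower and 0% higher of all genes tested in both cultures. The 91 genes had a median level of 49.4 FPKM in the wild type on D-fructose and 109 FPKM in the mutant, compared with 64.8 and 34.1 FPKM on cellulose and 24.9 and 26.9 FPKM without a carbon source. Mutant replicate 1 was the highest of the 6 libraries for 60 of the 91 genes, and mutant replicate 2 was the lowest of the mutant libraries for 71.

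Among the 10 genes called higher whichever library was left out, Triha1_476758 had close replicates, at 439, 519 and 440.3 FPKM in the wild type and 1084, 1141 and 1189 FPKM in the mutant, with no overlap and a log2 fold change of 1.61 ± 0.24 (SE, n = 3) (DESeq2 adjusted p = 4.64e-08). On cellulose the same gene was at 382 ± 46.8 FPKM in the wild type and 41.1 ± 60.0 FPKM in the mutant (SD, n = 3). Triha1_75829 was at 44.6, 47 and 56.4 and 120.1, 111 and 134 FPKM, and Triha1_513085 at 19.4, 19.8 and 12.7 and 50.2, 38.8 and 52.5 FPKM. Triha1_497253 was low in both strains, at 1.86, 2.30 and 1.88 and 12.3, 5.98 and 11.2 FPKM, and Triha1_89888 was high, at 182, 202 and 253 and 735, 471 and 637 FPKM. In these 5 genes all mutant libraries were above all wild-type libraries, and none has an annotation in the tables used. Of the 91 genes called higher, 89 had strains that did not overlap in FPKM. Over all genes tested, 3.99% did not overlap with the mutant higher. The 91 were picked by a call on these same libraries, so this lack of overlap adds no support.

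Of the 91 genes called higher on D-fructose, the 4 that were called higher on cellulose too had another pattern across carbon sources. These 4 were singled out after their values were seen. DESeq2 called Triha1_374170 and Triha1_1391 in all 6 fits with 1 library left out, Triha1_527768 in 4 and Triha1_532689 in 2. Triha1_374170 was at 7.34, 9.41 and 7.31 FPKM in the wild type and 35.9, 17 and 22.1 FPKM in the mutant on D-fructose, and its mean was 3933 and 3415 FPKM without a carbon source. Triha1_1391 was at 4.37, 5.97 and 4.64 and 23.4, 12.9 and 11.3 FPKM on D-fructose, and its mean was 1738 and 1557 FPKM without a carbon source. On cellulose, edgeR called them higher in the mutant, with means of 319 and 3219 FPKM for Triha1_374170 and 144 and 1457 FPKM for Triha1_1391. Triha1_527768 was at 0.851, 0.893 and 0.796 and 3.23, 1.69 and 3.23 FPKM on D-fructose, with means of 25.9 and 621 FPKM on cellulose and 854 and 684 FPKM without a carbon source. Triha1_532689 was at 2.35, 2.95 and 2.38 and 5.90, 5.07 and 6.05 FPKM on D-fructose, 69.3 and 466 FPKM on cellulose and 542 and 491 FPKM without a carbon source. On D-fructose these 4 genes were far below their level in cultures without a carbon source in both strains, and above the wild type in all 3 mutant libraries.

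The annotation table used held 818 of the 14650 genes, and 7 of the 91 genes called higher and 3 of the 20 called lower were in it. Beside the glycolysis genes below, they included Triha1_80146 at 155, 170.0 and 104 FPKM in the wild type and 574, 233 and 409 FPKM in the mutant, a multicopper oxidase of family AA1_2, which holds ferroxidases used in iron uptake. Triha1_502914, with a domain of reductases of riboflavin synthesis, was at 3.61, 3.63 and 4.34 and 17, 6.24 and 8.57 FPKM. Triha1_501007, with a carbohydrate-binding domain, was called lower, at 7.75, 5.93 and 14 and 2.61, 2.78 and 2.43 FPKM. These 3 genes were chosen for their annotation after their values were seen, and each was called by DESeq2 in at most 2 of the 6 fits with 1 library left out.

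**Figure D4:**
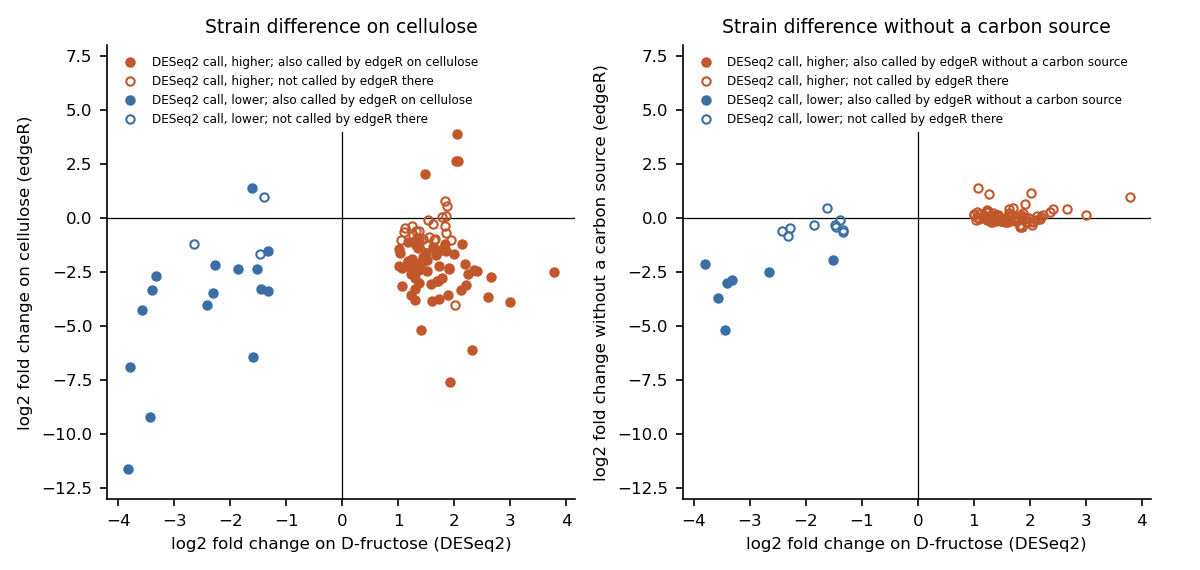
Strain difference (log2 fold change, Δxyr1-2 over wild type) of the genes that DESeq2 called on D-fructose, without xyr1. The x axis is the D-fructose difference by DESeq2, and the y axis the edgeR difference on cellulose (left) or without a carbon source (right). Filled symbols were also called by edgeR in the second condition. Most genes lower on D-fructose (blue) are lower on cellulose, 15 of 19 by the call. Most genes higher on D-fructose (orange) are lower on cellulose, and none of the orange genes is called without a carbon source. Of all genes tested, 20.7% were called lower on cellulose and 0.132% without a carbon source.

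Most genes for enzymes that break down plant cell walls were hardly expressed on D-fructose in either strain. Of the 58 plant biomass-degrading CAZymes (carbohydrate-active enzymes) in the part of the annotation used, 52 had a read, 21 reached a mean of 1 FPKM in a strain and 23 were tested. None was called by edgeR, and DESeq2 called only the GH67 gene Triha1_509810. Their median log2 fold change was -0.44, with 18 of 23 negative, compared with -0.03 over all genes tested. At an unadjusted p under 0.05, 4 were lower and none higher, where 3.02% of all genes were lower. These counts were 4 of 25 without mutant replicate 1 and 2 of 24 without wild-type replicate 3, and the median moved to -0.19 without wild-type replicate 3.

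The cellobiohydrolases, which release cellobiose from the ends of cellulose chains, were near the limit of detection. CEL6 (Triha1_508689) was at 1.56, 1.40 and 2.30 FPKM in the wild type and 0.76, 1.15 and 0.901 FPKM in the mutant. CEL7A (Triha1_7497) was at 0.561, 0.475 and 1.86 and 0.199, 0.529 and 0.219 FPKM. The replicates of CEL6 did not overlap and those of CEL7A did, with edgeR adjusted p of 0.625 and 0.619. For comparison, CEL7A was at 5274 ± 6016 FPKM in the wild type on cellulose (SD, n = 3). The endo-glucanases CEL7B (Triha1_512303) and EGIII (Triha1_91916), which cut inside cellulose chains, had at most 0.0869 FPKM in any library, and EGIII had no read in all 6.

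None of the 9 endo-xylanases listed reached a mean of 1 FPKM in either strain, and none had enough reads for the test. The GH11 gene Triha1_115099 was at 0.309, 0.352 and 0.261 FPKM in the wild type and 0, 0.0972 and 0.201 FPKM in the mutant, and the GH10 gene Triha1_91773 at 0, 0 and 0.177 and 0.0621, 0.11 and 0.0569 FPKM. The cutinase or acetylxylan esterase gene CE5 (Triha1_118643) was at 0.743, 0.223 and 0.173 and 0, 0 and 0.167 FPKM. At this depth a difference between the strains in these genes was not detectable.

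The xylan-acting group held more expressed genes. Of 10 tested, 9 had a negative log2 fold change, with a median of -0.48, and 3 were lower at an unadjusted p under 0.05, where 3.02% of all genes were (1 without wild-type replicate 3 and 3 of 12 without mutant replicate 1). The median was -0.84 over the 12 genes tested without mutant replicate 1 and -0.16 without both of these libraries. Besides GH67, these were the CE1 esterase Triha1_102504, at 1.43, 2.41 and 3.78 FPKM in the wild type and 0, 0.725 and 0.374 FPKM in the mutant, and a CE5 gene, Triha1_109468, at 68.7, 95.1 and 407 and 24.8, 89.4 and 41.5 FPKM. Triha1_102504 did not overlap between strains (edgeR log2 fold change -2.56 ± 0.79 (SE, n = 3), adjusted p = 0.54), and Triha1_109468 did, with wild-type replicate 3 far above the rest. The 26 xylan-acting genes summed to 317, 346 and 653 FPKM in the wild type and 125, 327 and 228 FPKM in the mutant, which overlapped (exact permutation test on log2 sums, 2-sided, p = 0.2). The 19 cellulose-acting genes summed to 443, 313 and 363 FPKM in the wild type and 675, 272 and 290.3 FPKM in the mutant (exact permutation test, p = 1), and the direction of this sum turned without mutant replicate 1.

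Other cell-wall enzymes were well expressed on D-fructose in both strains. The GH12 endo-glucanase Triha1_362575 was at 169, 146 and 156 FPKM in the wild type and 206, 141 and 155 FPKM in the mutant, and the GH5_12 endo-glucanase Triha1_507162 was at 11, 14.2 and 15.8 and 4.63, 9.04 and 6.75 FPKM, lower in all 3 mutant libraries (edgeR adjusted p = 0.54). The 6 endo-glucanases tested had a median log2 fold change of 0.05, which was -0.24 without mutant replicate 1 and -0.22 with scaling by library size alone, and the 9 esterases tested one of -0.44. The β-glucosidase Triha1_504610 was at 97.8, 134 and 229.9 and 45.1, 108 and 79.7 FPKM, and the β-glucosidase Triha1_96503 at 6.16, 14.6 and 25.9 and 3.39, 12.5 and 8.65 FPKM, and both genes overlapped between the strains. The highest of the CAZymes, named after its values were seen, was the GH28 pectinase Triha1_88799, at 362, 620.1 and 1842 FPKM in the wild type and 87.6, 666 and 385 FPKM in the mutant, with a range within each strain larger than the difference between them.

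Most glycolysis genes had positive fold changes in the mutant, although edgeR called none of them and DESeq2 called 2. Of 28 tested, 22 were positive and the median log2 fold change was 0.57, compared with -0.03 over all genes. At an unadjusted p under 0.05, 9 were higher and none lower, where 5.03% of all genes were higher. Without mutant replicate 1, 4 of 29 were higher (3.2% of all genes) and the median was 0.32, without wild-type replicate 3 they were 7 of 28 (5.31%), and without both 6 of 28 (6.46%), with a median of 0.25. The summed level of the 30 genes was 18592, 14370 and 15733 FPKM in the wild type and 28885, 19562 and 20591 FPKM in the mutant. All mutant libraries were above all wild-type libraries, mutant replicate 1 the most, and the exact permutation test gave p = 0.1, the smallest that 3 libraries against 3 allow.

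Among these genes were the ortholog of glkA, Triha1_92402, for glucokinase, which phosphorylates D-glucose, at 77.6, 107 and 97.4 FPKM in the wild type and 156, 168 and 145 FPKM in the mutant. DESeq2 called it higher, with a log2 fold change of 1.06 ± 0.26 (SE, n = 3) and an adjusted p of 0.0104, and this call was kept in 2 of the 6 fits with 1 library left out. The ortholog of hxkA, Triha1_3663, for the hexokinase that also takes D-fructose, was at 101, 132 and 149.7 and 69.5, 112 and 86.7 FPKM, and the strains overlapped. Phosphofructokinase, the ortholog of pfkA (Triha1_96154), was at 88.6, 88.2 and 76.8 FPKM in the wild type and 241, 92.9 and 102 FPKM in the mutant, with only mutant replicate 1 well above the wild type. Both hxkA and pfkA are named outside the rule for named genes, for their place at the entry of D-fructose into glycolysis.

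Lower in the pathway, the ortholog of pgmA (Triha1_141171), for phosphoglycerate mutase, was at 235, 204 and 204 FPKM in the wild type and 504, 348 and 393 FPKM in the mutant and was called higher by DESeq2 (log2 fold change 1.30 ± 0.35 (SE, n = 3), adjusted p = 0.0279), a call kept in 1 of those 6 fits. The most abundant members were the orthologs of adhA (Triha1_77454, alcohol dehydrogenase), at 5755, 2691 and 4279 and 7570.2, 4510.4 and 4817 FPKM, pdcA (Triha1_126634, pyruvate decarboxylase), at 2646, 1421 and 2111 and 4674, 3257 and 3519.9 FPKM, and gpdA (Triha1_506581, glyceraldehyde-3-phosphate dehydrogenase), at 1813, 1842 and 1767 and 3641, 2376 and 2578 FPKM. The mutant libraries were all above the wild type for pdcA and gpdA and not for adhA, and the edgeR adjusted p of these 3 genes was between 0.581 and 0.638. The orthologs of enoA (Triha1_76434, enolase), at 1643, 1399 and 1029 and 3304, 1593 and 1979 FPKM, and pgkA (Triha1_510202, phosphoglycerate kinase), at 1042, 911 and 1052 and 2101, 1370.4 and 1523 FPKM, also had their highest value in mutant replicate 1. On cellulose, 17 of the 29 glycolysis genes tested were called lower in the mutant by edgeR and 1 higher, where 20.7% and 21.5% of all genes were, and without a carbon source none of 29 was called.

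The tricarboxylic acid cycle, which oxidizes acetyl-CoA in mitochondria, had 17 of 21 genes positive and a median log2 fold change of 0.42. The median was 0.09 without both mutant replicate 1 and wild-type replicate 3, and 0.13 with scaling by library size alone, where that of all genes was -0.29. Only 2 genes (9.52%, against 5.03% of all genes) were higher at an unadjusted p under 0.05, and none had one without mutant replicate 1. The fumarase gene, the ortholog of FumR (Triha1_100953), was at 186, 158 and 138 FPKM in the wild type and 275, 221 and 213 FPKM in the mutant, with no overlap. The ortholog of citA (Triha1_485868, citrate synthase) was at 329, 248 and 119 and 670.2, 256 and 358 FPKM, so that wild-type replicate 3 was the lowest library and mutant replicate 1 the highest. The summed level of the cycle was 4410, 4630.3 and 3367 FPKM in the wild type and 4607, 4391 and 4571 FPKM in the mutant (exact permutation test, p = 0.7). This result depended on the scaling. The log2 difference of the sum was 0.14 on FPKM and 0.42 on FPKM rescaled by TMM factors. On the rescaled values the exact permutation test gave p = 0.1, the smallest possible here.

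The pentose phosphate pathway, which supplies NADPH and ribose, was level between the strains in its median fold change, but its summed level depended on the scaling. Its 10 tested genes had a median log2 fold change of 0.02 (-0.24 with scaling by library size alone, where that of all genes was -0.29), with none at an unadjusted p under 0.05. The 11 genes listed summed to 1742, 2192 and 1815 FPKM in the wild type and 1734, 1998 and 1857 FPKM in the mutant (exact permutation test, p = 0.8). The log2 difference of the sum was -0.04 on FPKM and 0.24 on FPKM rescaled by TMM factors. On the rescaled values the exact permutation test gave p = 0.1, the smallest possible here. The most different of the 10 genes tested by p was the transaldolase ortholog of talA (Triha1_497892), at 829.7, 926 and 706 and 967, 946 and 933 FPKM (edgeR adjusted p = 0.625).

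None of the genes of the pentose catabolic pathway, which in T. reesei is under XYR1, was called by edgeR or DESeq2. Xylulose kinase, xki1 (Triha1_499653), was at 15.2, 19.3 and 16.6 FPKM in the wild type and 7.39, 9.65 and 7.38 FPKM in the mutant, with no overlap, a log2 fold change of -0.80 ± 0.21 (SE, n = 3) and an edgeR adjusted p of 0.54. DESeq2 gave an adjusted p of 0.0995. Xylitol dehydrogenase, xdh1 (Triha1_508280), was at 6.79, 15.6 and 17.4 and 2.98, 8.72 and 5.20 FPKM, and D-xylose reductase, xyl1 (Triha1_83947), at 45.9, 72.6 and 67.3 and 34.1, 49.7 and 44.1 FPKM, both with overlap. L-arabinitol dehydrogenase, lad1 (Triha1_495252), was at 4.46, 8.75 and 8.62 and 8.78, 9.83 and 6.34 FPKM, and lxr3 (Triha1_479566), an L-xylulose reductase, at 89.6, 138 and 49.7 and 92.9, 133 and 133 FPKM. Of the 5 genes, 2 were lower at an unadjusted p under 0.05 (3.02% of all genes were), and 1 was with either mutant replicate 1 or wild-type replicate 3 left out. On cellulose, xki1 was at 47.4 ± 7.13 FPKM in the wild type and 9.27 ± 1.05 FPKM in the mutant (SD, n = 3), close to its level in the mutant on D-fructose. The related lxr4 (Triha1_83091) was at 22.7, 39.3 and 46.2 and 21.2, 32.1 and 29.5 FPKM.

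Of the 90 predicted sugar transporters, 71 were tested, 54 of them negative, with a median log2 fold change of -0.42. This median was -0.13 without wild-type replicate 3 and 0.07 without that library and mutant replicate 1, so it rested on those libraries. At an unadjusted p under 0.05, 3 transporters (4.23%) were lower and 4 (5.63%) higher, near the 3.02% and 5.03% of all genes, and only Triha1_99293 was called by DESeq2. Triha1_82579 was at 29.1, 20.0 and 15.8 FPKM in the wild type and 8.58, 8.96 and 9.83 FPKM in the mutant, and Triha1_4515 at 16.8, 13.5 and 13.5 and 31, 19 and 22.1 FPKM, and neither overlapped between strains (edgeR adjusted p = 0.54 for both).

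The most abundant transporters on D-fructose did not separate the strains. Triha1_93294 was at 366, 448 and 1001 FPKM in the wild type and 302, 562 and 353 FPKM in the mutant, and Triha1_93498 at 427, 396 and 296 and 258, 386 and 386 FPKM. Triha1_79806 varied most, at 71.3, 9.04 and 16.5 and 772, 33.7 and 115 FPKM, so that mutant replicate 1 was more than 6 times the next library, and it was at 1139 ± 652 FPKM in the wild type on cellulose (SD, n = 3). Triha1_481046 was at 135, 236 and 13.4 and 131, 182 and 219 FPKM, with wild-type replicate 3 alone low, and Triha1_78790 at 78.1, 90.3 and 167 and 64.3, 92 and 71.8 FPKM. The 90 genes summed to 1843, 2067 and 2675 FPKM in the wild type and 2084, 2164 and 1846 FPKM in the mutant (exact permutation test, p = 0.9), and the sign of this difference turned on TMM-scaled values.

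**Figure D5:**
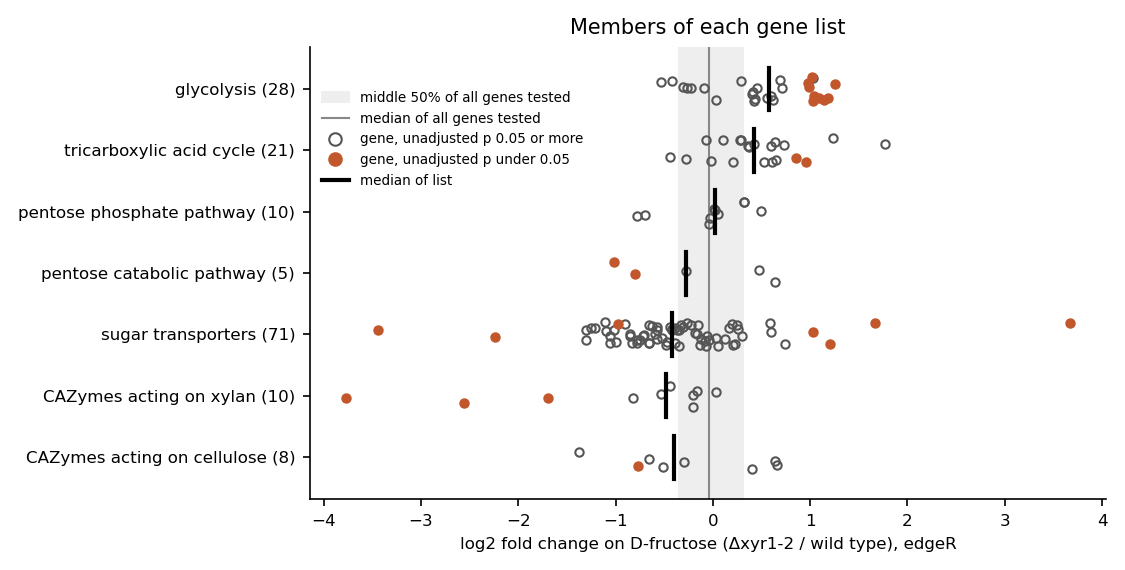
Log2 fold change of the Δxyr1-2 mutant over the wild type on D-fructose (edgeR) for the tested members of 7 gene lists, with the number tested beside each name. Orange symbols have an unadjusted p under 0.05, thick bars are list medians, and the grey band and line are the middle 50% and the median of all genes tested. Glycolysis has its median at 0.57 with 9 orange genes to the right, and the xylan-acting CAZymes have theirs at -0.48.

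The gene for the carbon catabolite repressor, cre1 (Triha1_502975), was at 397, 494 and 369 FPKM in the wild type and 370.1, 559 and 510.1 FPKM in the mutant. The strains overlapped, with a log2 fold change of 0.45 ± 0.25 (SE, n = 3) and an edgeR adjusted p of 0.628.

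The largest variation between the D-fructose libraries was in genes that did not follow the strain. Of the 5 genes with the strongest positive loading on the first principal component, Triha1_10644 was at 56.4, 172 and 2057 FPKM in the wild type and 6.07, 188 and 36.1 FPKM in the mutant, and Triha1_512860 at 34.2, 78.6 and 297 and 3.73, 60.6 and 26.5 FPKM. Triha1_10849 was at 851, 1174 and 947 and 23.6, 1785 and 518 FPKM, so that mutant replicate 1 was the lowest and mutant replicate 2 the highest library. With negative loadings, Triha1_288414 was at 20.1, 7.97 and 4.71 and 177, 3.17 and 6.12 FPKM, Triha1_509408 at 49.7, 19 and 2.74 and 108, 10.4 and 19.4 FPKM, and Triha1_98683 at 119.9, 95.4 and 13 and 425, 78.1 and 131 FPKM, each with mutant replicate 1 highest. Apart from xyr1, which had the other strong positive loading beside Triha1_509041, only Triha1_483128 of these 10 genes separated the strains, at 6.02, 2.84 and 9.61 FPKM in the wild type and 133, 13.7 and 36.9 FPKM in the mutant (DESeq2 adjusted p = 0.00115, edgeR adjusted p = 0.54).

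Whether the strain difference on D-fructose differed from that in the other cultures was tested as an interaction in edgeR. Against cellulose, 5007 of 11788 genes (42.5%) differed at an adjusted p under 0.05 and a fold over 2, 2485 with a more positive and 2522 with a more negative difference on D-fructose. Scaling by library size alone gave 6025 genes, split 1218 and 4807. Against cultures without a carbon source, 0 of 11826 genes were called by edgeR, with 973 at an unadjusted p under 0.05. DESeq2 called 65 of the 6170 genes that it gave an adjusted p. Of these 65, the difference on D-fructose was more positive for 63 and more negative for 2.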

How the data were processed

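RNA of 3 wild-type and 3 Δxyr1-2 cultures on D-fructose was sequenced, 1 library per culture. Per the submitters' processing notes and the methods of the study, the authors mapped cleaned reads to the T. harzianum CBS 226.95 genome with STAR (2.5.2b), kept reads with at most 1 mismatch, and deposited raw read counts per gene from HTSeq (0.5.4). The deposited FPKM values are the authors' own, and the tool that made them is not given in the sources used here.

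Counts were fitted with edgeR 4.0.16 (quasi-likelihood, TMM scaling, filterByExpr) in R 4.3.3 on the 6 D-fructose libraries, and p-values were adjusted by Benjamini-Hochberg over all genes tested. Interactions with the other cultures used 12 libraries. DESeq2 1.42.0 and limma 3.58.1 (voom with library weights) were alternatives, and so were other scalings, omission of the filter on low counts, a fit of all 18 libraries, other thresholds, the replicate number as a block, a pseudocount of 0.1 and leaving out libraries. The standard error of an edgeR fold change was taken from the fold change and the F statistic. FPKM were used for levels, sums and distances (log2 with a pseudocount of 1, Python 3.11.15), and sums were compared by 2-sided exact permutation tests. The fits were tested on simulated data. No 2 libraries held identical values. Depth was similar among the 6 libraries, and each replicate was a culture from its own spore plate, so p-values measure the spread between such cultures. Within a strain the replicate number marks a set of pre-cultures shared by all carbon sources. Deviations of same-numbered libraries on D-fructose and cellulose correlated at 0.11 to 0.45, and the interaction fits were repeated with this pairing as a block.

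All 14290 annotated genes of the count table matched a RefSeq locus tag, and 360 others are loci that the authors added. Gene lists came from the annotation columns of 818 genes of a supplementary table that is held here in part, so lists may be incomplete. Lists by product name, spore markers included, were not analysed here because the reference used has no product names.

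Named genes were xyr1 and its 2 neighbors on either side. Also named were genes called by edgeR, up to 5 genes that DESeq2 called on D-fructose and edgeR in the same direction in each other culture, and the 10 higher and 10 lower genes with the lowest edgeR p, over 2-fold change, a mean over 1 FPKM and no overlap. Further, the cellulase, xylanase and pentose catabolic genes and cre1, the 3 genes of lowest p in each list, the 5 most abundant transporters and glycolysis genes, and the 5 strongest loadings in each direction on the first component were named. Members and lists were chosen with earlier results of these data known, and genes named outside this rule are said to be so.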

Additional observations from a re-analysis of the deposited data

Results flagged for a closer look

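The strain difference on D-fructose differed from that on cellulose for 5007 of 11788 genes (42.5%) by the edgeR interaction test. Among them were 16 of the genes with the clearest strain difference on D-fructose. Those genes were picked by values of the same D-fructose libraries that enter the interaction. Their values and adjusted p are therefore no independent support. The values below are the log2 fold change of the mutant over the wild type on D-fructose minus that on cellulose (edgeR, 12 libraries), with adjusted p between 9.89e-06 and 0.042.

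The value for xyr1 (Triha1_1126) was 2.62. The gene is deleted in the mutant, so this value follows the wild-type level, which was higher on cellulose, and says nothing of the size of the loss. For other genes lower in the mutant in both cultures, positive values mark a smaller strain difference on D-fructose. The value was 5.74 for the transporter Triha1_99293, 4.76 for Triha1_86893 and 7.70 for Triha1_484109.

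Among the genes higher in the mutant on D-fructose, the value was 2.88 for Triha1_75829, 5.30 for Triha1_497253, 4.49 for Triha1_513085, 5.38 for Triha1_476758, 2.22 for Triha1_76939, 4.00 for Triha1_506123, 5.38 for Triha1_89888, 5.22 for Triha1_5113 and 4.72 for Triha1_499082. All 9 had a negative log2 fold change on cellulose, from -1.11 for Triha1_76939 to -3.84 for Triha1_476758, and edgeR called each of them lower there except Triha1_75829 (adjusted p = 0.0744). The value was 2.95 for Triha1_439414, which had too few reads on cellulose for a test of that culture.

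Negative values were found for Triha1_497735 (-3.10), which was lower in the mutant on D-fructose and higher on cellulose, and for Triha1_66894 (-3.21), which had a log2 fold change of -2.33 on D-fructose and 0.86 on cellulose (edgeR adjusted p = 0.408 on cellulose).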

How the results depend on the processing

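The number of genes called was the result that depended most on the test. In place of 1 gene, DESeq2 gave 111, limma voom 232 and the fit of all 18 libraries together 113. With other scalings, without the count filter, without the FPKM or fold criterion and with an adjusted p under 0.1 the edgeR count was 1, as it was in the fit with the replicate block. The methods of the study do not say whether a number pairs cultures of the strains. Deviations of same-numbered libraries correlated at 0.46, 0.11 and -0.04, and those of differently numbered ones at -0.53 to 0.34. These few values cannot settle it. Leaving out single libraries gave 0 to 1 genes by edgeR and 25 to 296 by DESeq2. Without mutant replicate 1 and wild-type replicate 3, an alternative chosen after seeing the data, edgeR gave 3, voom 3 and DESeq2 182 genes. The cause of these differences was not tested. The interaction with cellulose was called for between 4347 and 6025 genes in all the alternatives run (5139 with the replicate block and 5362 with a replicate block within each strain, added after seeing the data). That with cultures without a carbon source was called for 0 genes, 0 with either replicate block, 65 with DESeq2 and 0 to 15 with single libraries left out. The ratio of distances stayed between 0.991 and 1.15.

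List medians moved with scaling by library size alone, together with the median of all genes (-0.29). They became -0.64 for cellulose-acting CAZymes, -0.22 for endo-glucanases, -0.66 for esterases, -0.0022 for carbon catabolism, 0.27 for glycolysis, -0.24 for the pentose phosphate, -0.54 for the pentose catabolic and -0.39 for the alternative L-arabinose pathway, and -0.040 for the D-galactose pathways. Leaving out single libraries gave -0.57 to -0.19 for all plant biomass-degrading CAZymes, -0.54 to -0.054 for the cellulose-acting ones, -0.24 to 0.25 for endo-glucanases, -0.57 to -0.25 for esterases, 0.14 to 0.36 for carbon catabolism, -0.047 to 0.15 for the pentose phosphate pathway and 0.034 to 0.39 for the D-galactose pathways. It gave 0.33 to 0.81 for glycolysis and -0.61 to -0.36 for the xylan-acting CAZymes. These ranges are over the genes of each list that were tested with all 6 libraries. Without mutant replicate 1 more genes passed the count filter. Over all genes tested there, the median was -0.84 for the 12 xylan-acting CAZymes and 0.32 for the 29 glycolysis genes. Of 79 named genes tested, DESeq2 called 22 and voom 24 that edgeR did not, xyr1 lost its call in 5 of the 6 fits with 1 library left out, and no called gene changed direction. With 3 libraries per strain, of which 1 each stood apart, genes under the count filter, such as the endo-xylanases, could not be compared.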

Other observations

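Genes for sugars other than D-fructose and D-xylose were expressed in both strains on D-fructose. Of 90 tested genes of carbon catabolism, 60 had a positive log2 fold change, with a median of 0.28 that was -0.0022 with scaling by library size alone. None was called by edgeR. In the D-galactose pathways, gal7 (Triha1_215393), which encodes the uridylyltransferase of the Leloir pathway, was at 35.6, 29.9 and 19.9 FPKM in the wild type and 46.5, 36.5 and 41.9 FPKM in the mutant. The mutant libraries were all above the wild type, with a log2 fold change of 0.84 ± 0.31 (SE, n = 3) and an edgeR adjusted p of 0.582. Galactokinase, gal1 (Triha1_392196), was at 33, 30.3 and 41.8 and 105, 26.2 and 24.1 FPKM, with only mutant replicate 1 high. The aldo-keto reductase gene ara1 (Triha1_509735), listed with the D-galacturonic acid pathway, was at 34.1, 24.6 and 35.6 and 50.7, 38.1 and 47.5 FPKM, higher in all 3 mutant libraries (edgeR adjusted p = 0.581), whereas on cellulose it was at 115 ± 86.0 FPKM in the wild type and 10.4 ± 1.62 FPKM in the mutant (SD, n = 3). In the same list, gar2 (Triha1_109919) was at 8.03, 20.9 and 16.9 and 3.21, 12 and 7.54 FPKM and the ortholog of gaaB (Triha1_513966), an L-galactonate dehydratase, at 7.46, 17.4 and 28.6 and 6.45, 19.1 and 10.3 FPKM, and both genes overlapped between the strains.

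Genes of the alternative L-arabinose pathway also overlapped, except araC (Triha1_497254), which was low at 2.30, 3.53 and 3.37 and 1.34, 2.25 and 2.05 FPKM and below the wild type in every mutant library (edgeR adjusted p = 0.635). The lactonase gene araB (Triha1_74604) was at 19.7, 23.7 and 14.9 FPKM in the wild type and 23.3, 17.3 and 13.1 FPKM in the mutant, and araE (Triha1_513325) at 12.3, 23.9 and 49.4 and 7.30, 25.4 and 14.4 FPKM. On cellulose araB was at 324 ± 26.2 FPKM in the wild type and 23.0 ± 1.57 FPKM in the mutant (SD, n = 3), so that both strains on D-fructose were near the level of the mutant on cellulose.

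In glycolysis, the ortholog of fbpz (Triha1_512263), with a domain of enzymes that make or remove fructose 2,6-bisphosphate, was at 62.2, 64.3 and 82.8 FPKM in the wild type and 136, 97.1 and 103 FPKM in the mutant, with no overlap (edgeR log2 fold change 0.99 ± 0.31 (SE, n = 3), adjusted p = 0.54). A mitochondrial isocitrate dehydrogenase gene of the tricarboxylic acid cycle (Triha1_71098) was at 344, 297 and 123 and 382, 361 and 478 FPKM, with wild-type replicate 3 the lowest library. In the pentose phosphate pathway, the orthologs of rpiB (Triha1_498824, at 51.3, 82.4 and 189.7 and 66.9, 31.9 and 51.7 FPKM) and tktB (Triha1_483092, at 2.46, 2.99 and 9.13 and 1.47, 3.07 and 3.16 FPKM) had wild-type replicate 3 as their highest library and overlapped. Of the cell-wall enzymes, the GH5_24 endo-glucanase Triha1_80467 was at 11.3, 8.34 and 10.9 and 19.7, 9.54 and 9.08 FPKM, and the CE3 esterase Triha1_157348 at 33.5, 33 and 38.3 and 12.7, 29.1 and 24.6 FPKM.

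Further genes higher in every mutant library were Triha1_76939, at 42.9, 48.3 and 39.8 FPKM in the wild type and 73.8, 80.2 and 84.1 FPKM in the mutant, Triha1_506123, at 48.4, 52.9 and 41.9 and 77.8, 92.9 and 115 FPKM, and Triha1_499082, at 141, 135 and 125 and 216, 289.6 and 266 FPKM. DESeq2 called these 3, with adjusted p between 1.31e-05 and 0.000736, and edgeR did not (adjusted p = 0.443 for each). Triha1_5113 was at 38.3, 29.3 and 49.2 and 183, 91 and 143 FPKM, with mutant replicate 1 the highest, and Triha1_439414 was low in both strains, at 0.89, 0.992 and 0.771 and 2.16, 4.20 and 4.45 FPKM. Triha1_508721, named because edgeR called it without mutant replicate 1 and wild-type replicate 3, was at 39.5, 36.0 and 5.79 FPKM in the wild type and 9.45, 6.65 and 6.49 FPKM in the mutant. Its wild-type replicate 3 was the lowest of the 6 libraries, and in the fit of the other 4 its log2 fold change was -2.36 ± 0.19 (SE, n = 2) with an edgeR adjusted p of 0.0179.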
